A study of Mus musculus with 6 samples.

Results

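The genes described here are 48 genes of DNA replication and S phase, chosen by name from a list of factors that license origins, synthesise DNA, supply nucleotides and histones, repair replicated DNA or control the G1/S transition. All 48 were among the 57010 gene identifiers counted, and all 48 were among the 16093 genes with enough reads to be tested. The list names genes by function and its rule uses no measured value, but the genes were chosen with earlier results of these data known. RNA came from dermal fibroblasts of the mouse ear. A soft polyacrylamide hydrogel of 1 kPa and a stiffer one of 20 kPa were each tested with 2 libraries, and glass was the control with 2 libraries, so that 6 libraries were compared in all. Each sample started from 500000 cells, which stayed on the substrate for 3 days before poly(A) RNA was sequenced. The labels give no strain, genotype, age or number of animals, and whether both libraries of a substrate stem from different cultures is not stated. The p-values therefore measure only the spread between these libraries, which may be technical.

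Before a cell can copy its DNA, the origin recognition complex, Cdc6 and Cdt1 load the MCM2 to MCM7 ring onto origins, a step called licensing. In S phase, Cdc45 and the GINS complex turn that ring into an active helicase, and the primase, the polymerases and the PCNA clamp with its RFC loader copy both strands. Many of these genes are transcribed under E2F factors, which are held back by the retinoblastoma protein until cyclin-dependent kinases act in late G1. The transcripts of this set are commonly read as a mark of proliferating cells.

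Library totals ran from 17669006 to 21350111 counts, and the scaled value used below is CPM, counts scaled to a common library size with TMM factors. At this depth 3 counts correspond to 0.139 to 0.174 CPM. Mitochondrially encoded genes took 1.25% to 1.55% of the counts, and 1 unnamed identifier took 5.10% of the counts of glass replicate 2, against 0.947% to 2.90% in the other libraries. All 10 fibroblast markers examined were expressed, with summed levels of 50425 to 51537 CPM on 1 kPa, 52498 to 55276 CPM on 20 kPa and 36315 to 39078 CPM on glass. Of these markers, 9 rose and 1 fell on 1 kPa, and 8 rose and 1 fell on 20 kPa, relative to glass. Over all tested genes, 23% rose and 22% fell on 1 kPa, and 22.3% rose and 19.6% fell on 20 kPa.

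Markers of other cells moved as well, and their counts stand beside the same shares of all genes. The 8 chondrocyte markers summed to 1053 to 1083 CPM on 1 kPa and 1905 to 1976 CPM on 20 kPa, against 875 to 933 CPM on glass, with 5 higher and 2 lower on 1 kPa and 7 higher and 1 lower on 20 kPa. The 7 pericyte and smooth muscle markers summed to 211 to 219 CPM on 1 kPa and 244 to 256 CPM on 20 kPa, against 309 to 350 CPM on glass, with 4 higher and 2 lower on 1 kPa and 3 higher and 3 lower on 20 kPa. The other lists were at low levels, and not all of their markers had enough reads to be tested. Those tested were 6 of 9 for macrophage and leukocyte and 5 of 8 for keratinocyte. They were 5 of 8 for skeletal muscle, 6 of 8 for Schwann and melanocyte and all 7 for endothelial. The 9 macrophage and leukocyte markers summed to 56.5 CPM in both 1 kPa libraries and 25.6 to 28.3 CPM on 20 kPa, against 17.1 to 18 CPM on glass. Most of the 1 kPa sum was Cd14, with 2 of the 9 higher there and with 2 higher and 1 lower on 20 kPa, while the pan-leukocyte gene Ptprc had 2 to 5 counts per library. The 8 keratinocyte markers summed to 26.5 to 28.4, 27.0 to 27.8 and 18.6 to 23.7 CPM on 1 kPa, 20 kPa and glass, with 1 higher and 3 lower on each gel. The 7 endothelial markers summed to 27.8 to 30.1, 26.3 to 27.0 and 14.7 to 15.1 CPM in the same order, with 4 higher on 1 kPa and 5 on 20 kPa. The 8 skeletal muscle markers summed to 35 to 35.4, 20.8 to 24.0 and 15.8 to 17.8 CPM, with 3 higher on 1 kPa and 2 on 20 kPa, and Pax7 of that list had no count in any library. The 8 Schwann and melanocyte markers summed to 37.4 to 37.9, 41.6 to 41.8 and 18.3 to 18.5 CPM, with 3 higher on 1 kPa and 5 on 20 kPa. What part these cells have in the results on the replication genes was not tested.

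The summed level of the replication and S phase transcripts was lower on both gels than on glass. The sum was 1605 and 1616 CPM on 1 kPa and 1489 and 1495 CPM on 20 kPa, against 1933 and 1885 CPM on glass. No gel library reached the level of either glass library. The mean sum was 84.3% of that on glass for 1 kPa and 78.1% for 20 kPa. An exact permutation test of 2 against 2 libraries cannot give a two-sided p below 0.333, so these sums carry no test. In such bulk RNA, fewer cells in S phase and less of these RNAs per cell cannot be told apart.

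Against glass, 18 of the 48 genes fell on 1 kPa (edgeR quasi-likelihood test, adjusted p under 0.05 over all tested genes), where 22% of all genes fell, and 0 rose, where 23% of all genes rose. On 20 kPa, 27 of the 48 fell, against 19.6% of all genes, and 0 rose, against 22.3% of all genes. The median log2 fold change of the 48 was -0.19 on 1 kPa and -0.32 on 20 kPa, beside 0.00 and 0.02 over all tested genes. Between the gels, 3 genes were lower on 20 kPa than on 1 kPa, against 9.92% of all genes, and 0 were higher, against 8.94%, with a median of -0.11. At an unadjusted p under 0.05, the genes that were higher numbered 0 on 1 kPa and 1 on 20 kPa, both against glass, and 0 on 20 kPa against 1 kPa. DESeq2 and limma-voom also called 0 higher in each comparison. No gene of the set fell by as much as 2-fold past the threshold, a size of fall reached by 3.01% of all genes on 1 kPa and 2.99% on 20 kPa. Both comparisons against glass use the same glass libraries. The test over the 3 groups called 25 of the 48 genes, a share close to the 51.2% of all genes that it called.

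The order of the group means was the same in most of the set. It ran from highest on glass through 1 kPa to lowest on 20 kPa in 33 genes. The share of all tested genes with this full order was not counted. The mean was lowest on 20 kPa in 37 genes, on 1 kPa in 6 and on glass in 5, where the shares over all tested genes were 26.6%, 32.5% and 41%. The 20 kPa and 1 kPa neighbours in this order differed past the threshold for 3 genes only, Mcm2, Mcm3 and Tk1. The libraries of 1 kPa lay below those of glass with no overlap in 28 genes, against 34.8% of all genes, and above them in 2, against 36.2%. The libraries of 20 kPa lay below those of glass in 35 genes, against 32% of all genes, and above them in 2, against 35.5%. The libraries of 20 kPa lay below those of 1 kPa in 24 genes, against 29.3% of all genes, and above them in 4, against 30.7%.

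**Figure D1:**
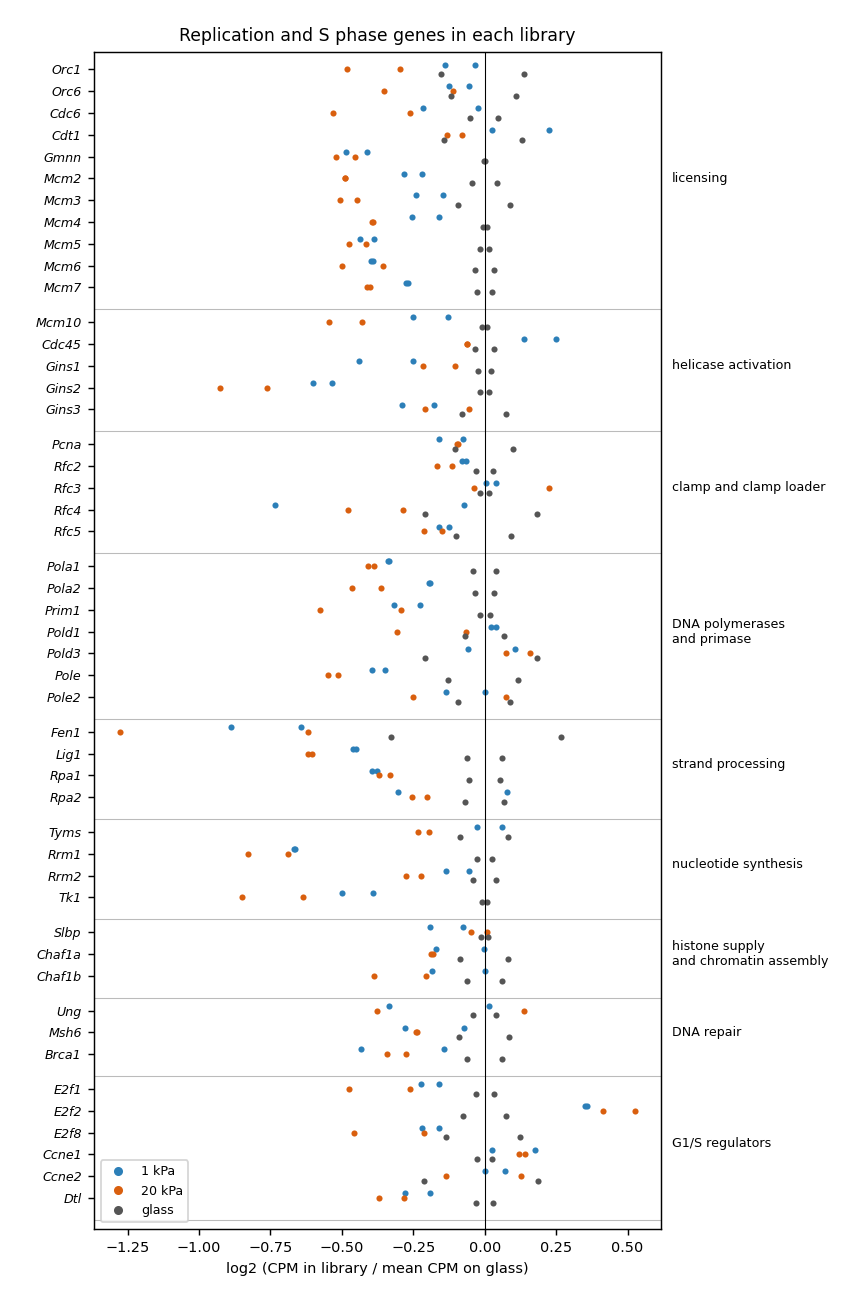
Each point is 1 library of 1 of the 48 genes, as log2 of its CPM over the mean CPM on glass, with the genes grouped by role down the page and the substrates in colour. Most 1 kPa and 20 kPa points lie left of 0, while those of several genes, among them Rfc3, Cdt1, Ccne2, Cdc45, Pold1, Pold3 and Tyms, lie on both sides of it. Those of Ccne1 and E2f2 lie right of it.

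The counts by role below stand beside the 22% of all genes that fell on 1 kPa and the 19.6% that fell on 20 kPa, and with few genes a role, counts near these shares say nothing about the role. Licensing genes made up the largest role group. Of 11, 7 fell on 1 kPa and 8 fell on 20 kPa, and their summed level was 499 and 504 CPM on 1 kPa and 452 and 449 CPM on 20 kPa, against 611 and 588 CPM on glass. Mcm2 to Mcm7, which encode the 6 subunits of the replicative helicase ring, all fell on both gels. Their calls on 20 kPa held in every alternative tried.

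Mcm5 (ENSMUSG00000005410.7, chromosome 8, 75109569 to 75128439, plus strand in GRCm38) had the smallest p of the licensing genes over the 3 groups. It was at 62.1 and 60.0 CPM on 1 kPa and 60.9 and 58.4 CPM on 20 kPa, against 82.1 and 80.3 CPM on glass. The gel libraries overlapped each other and lay well below both glass libraries. Its log2 fold change was -0.41 (SE 0.07, adjusted p = 6.49e-06) on 1 kPa and -0.45 (SE 0.07, adjusted p = 1.94e-06) on 20 kPa. Mcm6 (ENSMUSG00000026355.12, chromosome 1, 128331590 to 128359664, minus strand) had the same shape, with 77.3 and 77.8 CPM on 1 kPa and 79.6 and 72.0 CPM on 20 kPa, against 104 and 99.6 CPM on glass. Its log2 fold change was -0.40 (SE 0.07, adjusted p = 9.36e-06) on 1 kPa and -0.43 (SE 0.07, adjusted p = 3e-06) on 20 kPa.

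Mcm2 and Mcm3 differed from these in that the 20 kPa libraries also lay below the 1 kPa ones. Mcm2 (ENSMUSG00000002870.9, chromosome 6, 88883474 to 88898780, minus strand) was at 64.4 and 67.3 CPM on 1 kPa and 55.8 and 55.7 CPM on 20 kPa, against 80.7 and 75.9 CPM on glass. Mcm3 (ENSMUSG00000041859.11, chromosome 1, 20802968 to 20820312, minus strand) was at 63.4 and 67.8 CPM on 1 kPa and 52.8 and 54.9 CPM on 20 kPa, against 79.7 and 70.2 CPM on glass. In both genes the 3 groups were fully separated. The log2 fold change on 1 kPa was -0.25 (SE 0.07, adjusted p = 0.00267) for Mcm2 and -0.20 (SE 0.07, adjusted p = 0.0269) for Mcm3. On 20 kPa it was -0.49 (SE 0.07, adjusted p = 5.19e-07) for Mcm2 and -0.48 (SE 0.07, adjusted p = 2.54e-06) for Mcm3. Between 20 kPa and 1 kPa it was -0.24 (adjusted p = 0.0119) for Mcm2 and -0.28 (adjusted p = 0.00523) for Mcm3. Both of these calls were lost in some fits that left 1 library in a gel group. In those fits the log2 fold change was -0.27 to -0.21 for Mcm2 and -0.24 and -0.25 for Mcm3. For Mcm2 the adjusted p was 0.0691 with total counts and 0.0544 to 0.187 without any 1 of the gel libraries. For Mcm3 it was 0.142 without 1 kPa replicate 2 and 0.0957 without 20 kPa replicate 1.

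Mcm4 was at 65.3 and 69.8 CPM on 1 kPa and 59.4 and 59.2 CPM on 20 kPa, against 77.5 and 78.2 CPM on glass. Its log2 fold change was -0.21 on 1 kPa (adjusted p = 0.0116) and -0.39 on 20 kPa (adjusted p = 1.5e-05), and -0.19 between 20 kPa and 1 kPa (adjusted p = 0.0507), just outside the threshold. Mcm7 was at 76.3 and 75.9 CPM on 1 kPa and 69.5 and 69.0 CPM on 20 kPa, against 93.4 and 90.1 CPM on glass, with log2 fold changes of -0.27 (adjusted p = 0.000715) and -0.41 (adjusted p = 3.92e-06). Mcm7 is uncertain in so far as the annotated copy Gm5487 matches 2157 bases of its transcript at 97.7% identity. Copies of at least 95% identity over at least 300 bases also exist for Cdc6, Rfc5 and Rrm2, whose reads the counting could split. Some calls of the ring genes on 1 kPa were lost in fits that left 1 library in a group, at log2 fold changes of -0.24 to -0.10. Without 1 kPa replicate 1 the adjusted p was 0.0652 for Mcm2, 0.254 for Mcm3 and 0.193 for Mcm4, and for Mcm3 it was 0.0564 without 1 kPa replicate 2 and 0.309 without glass replicate 1.

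**Figure D2:**
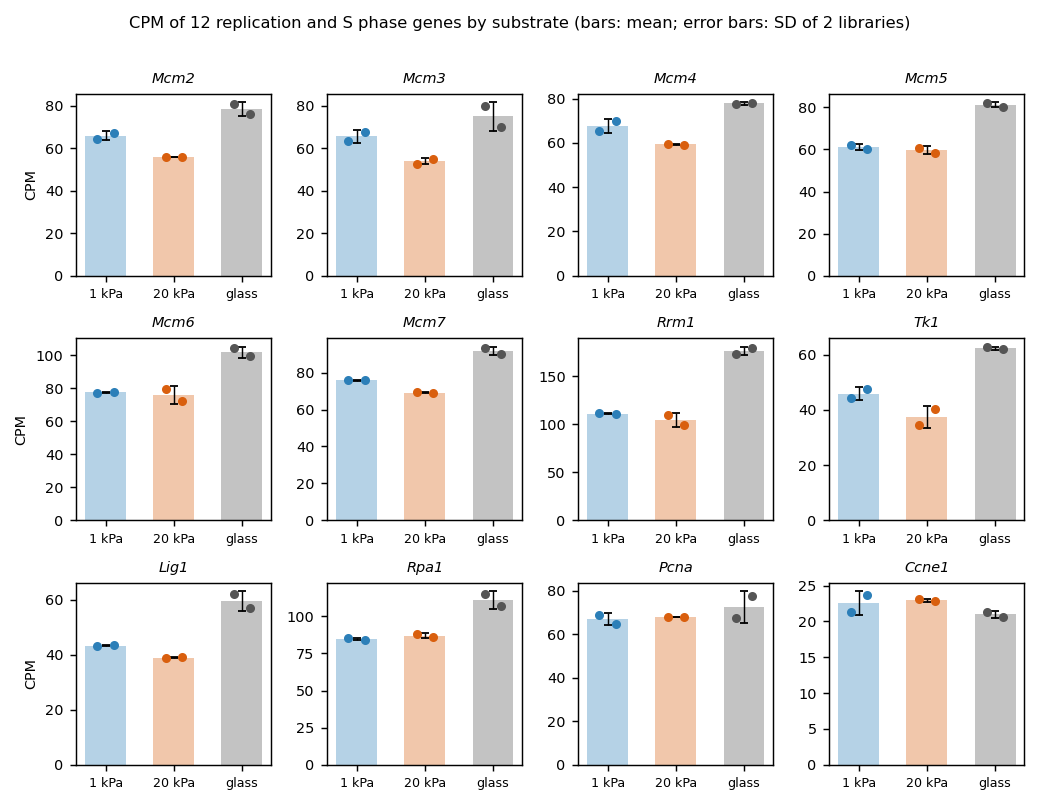
CPM of 12 genes on 1 kPa, 20 kPa and glass, with bars for the mean, error bars for the SD and points for the 2 libraries. Mcm2, Mcm3 and Tk1 step down from glass through 1 kPa to 20 kPa, Mcm5, Mcm6, Rrm1 and Rpa1 are alike on both gels and lower than on glass, and the bars of Pcna and Ccne1 lie close together.

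Geminin, encoded by Gmnn, binds Cdt1 and blocks repeated licensing. Gmnn was at 12.4 and 11.8 CPM on 1 kPa and 12.1 and 11.5 CPM on 20 kPa, against 16.6 and 16.5 CPM on glass. It fell on both gels, by 0.45 (SE 0.11, adjusted p = 0.00187) and 0.49 (SE 0.11, adjusted p = 0.000824) on the log2 scale. Its partner Cdt1, at 28.3 and 24.6 CPM on 1 kPa and 22 and 22.9 CPM on 20 kPa, against 26.4 and 21.9 CPM on glass, did not pass in any comparison. The libraries of Cdt1 overlapped between the gels and glass.

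Cdc6, an ATPase that works with the origin recognition complex in loading the ring, was at 16.9 and 14.8 CPM on 1 kPa and 11.9 and 14.3 CPM on 20 kPa, against 17.8 and 16.6 CPM on glass. It fell on 20 kPa (log2 fold change -0.39, SE 0.12, adjusted p = 0.0076) and did not pass on 1 kPa (-0.11, adjusted p = 0.445). The fall on 20 kPa was lost without glass replicate 1 (adjusted p = 0.0571) and without 20 kPa replicate 1 (adjusted p = 0.162). The origin recognition subunits Orc1 and Orc6 did not pass on either gel. Orc1 had log2 fold changes of -0.08 (SE 0.15) on 1 kPa and -0.38 (SE 0.16, adjusted p = 0.0524) on 20 kPa, and Orc6 of -0.09 (SE 0.10) and -0.22 (SE 0.10, adjusted p = 0.0725). The adjusted p on 20 kPa was 0.0194 for Orc1 (0.0437 with RLE size factors) and 0.0146 for Orc6 without glass replicate 1, and 0.0301 for Orc6 without 20 kPa replicate 2.

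The promoters of the ring genes were searched for short motifs. Sequences from RefSeq (GRCm38.p6), running from 250 bases before to 50 bases after the start of transcription, were at hand for 41 of the 48 genes. An E2F-type site was searched as TTTCCCGC, TTTCGCGC, TTTGCCGC or TTTGGCGC on both strands. Of the 46 promoters of the set, 17 held a match (37%), compared with 744 of all 32851 promoters (2.26%). Of the 5 ring genes with a promoter, 4 held a match, and the promoter of Mcm2 held none of these letters. CCAAT, the letters that NF-Y binds, was in all 6 promoters of these 5 genes (100%), compared with 37.4% of all promoters. Mcm2 and the other 4 genes all fell on both gels, and only the 4 promoters with an E2F-type match are shown. They lie at chr1:20820263-20820562 (Mcm3, minus strand), chr8:75109259-75109558 (Mcm5, plus strand), chr1:128359656-128359955 (Mcm6, minus strand) and chr5:138171834-138172133 (Mcm7, minus strand, the one of its promoters with a match). Each runs 5′ to 3′ with the matches in capitals, and overlapping matches are joined.
Mcm3: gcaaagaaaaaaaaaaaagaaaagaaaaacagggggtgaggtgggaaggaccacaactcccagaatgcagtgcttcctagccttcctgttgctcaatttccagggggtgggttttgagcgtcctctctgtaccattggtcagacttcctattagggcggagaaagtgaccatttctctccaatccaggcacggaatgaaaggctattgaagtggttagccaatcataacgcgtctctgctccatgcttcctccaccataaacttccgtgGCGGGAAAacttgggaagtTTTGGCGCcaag
Mcm5: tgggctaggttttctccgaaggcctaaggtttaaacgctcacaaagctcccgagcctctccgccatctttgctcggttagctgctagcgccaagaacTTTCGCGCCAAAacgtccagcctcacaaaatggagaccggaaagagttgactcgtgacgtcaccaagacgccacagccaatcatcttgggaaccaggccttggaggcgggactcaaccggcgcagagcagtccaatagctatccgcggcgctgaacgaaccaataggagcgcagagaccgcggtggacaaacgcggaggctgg
Mcm6: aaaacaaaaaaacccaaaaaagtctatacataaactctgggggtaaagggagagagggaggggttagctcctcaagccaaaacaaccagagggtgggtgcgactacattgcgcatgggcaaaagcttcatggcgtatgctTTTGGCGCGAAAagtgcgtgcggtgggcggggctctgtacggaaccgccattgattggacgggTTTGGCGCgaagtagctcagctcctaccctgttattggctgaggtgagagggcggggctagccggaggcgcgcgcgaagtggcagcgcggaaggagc
Mcm7: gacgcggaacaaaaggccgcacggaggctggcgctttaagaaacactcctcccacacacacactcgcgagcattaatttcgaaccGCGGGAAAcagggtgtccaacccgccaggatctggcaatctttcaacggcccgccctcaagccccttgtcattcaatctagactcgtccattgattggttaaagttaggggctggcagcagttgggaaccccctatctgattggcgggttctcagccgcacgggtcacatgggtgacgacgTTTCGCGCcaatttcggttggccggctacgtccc
The matches of Mcm5 and Mcm6 include a pair in opposite directions that overlap, and those of Mcm3 both lie after the start of transcription, beginning 19 and 38 bases from it.

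A match was not limited to genes that fell. Of 27 promoters of genes lower on at least 1 gel, 9 held an E2F-type match (33.3%), and so did 8 of 19 promoters of genes called in no comparison (42.1%). Some genes have more than 1 promoter. Counted by gene, a match was held by 9 of 23 and 8 of 18 genes with a promoter. The clamp loader gene Rfc3, which differed least between 1 kPa and glass within its group, held 2 matches in its promoter (chr5:151651159-151651458, minus strand), shown for that contrast.
Rfc3: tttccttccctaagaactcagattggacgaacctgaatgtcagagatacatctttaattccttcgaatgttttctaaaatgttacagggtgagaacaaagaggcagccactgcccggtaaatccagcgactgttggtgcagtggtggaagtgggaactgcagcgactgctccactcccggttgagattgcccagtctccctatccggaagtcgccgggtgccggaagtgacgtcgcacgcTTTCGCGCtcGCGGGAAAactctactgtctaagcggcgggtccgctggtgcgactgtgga
A match is a description of the letters and no proof of a working site.

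Other motifs differed between this set and the mitotic genes. The motif of the cell cycle genes homology region, or CHR (TTTGAA or TTCGAA), was in 17.4% of the set's promoters, in 19.2% of all promoters and in 16 of 20 promoters of G2 and mitosis genes (80%). CCAAT was in 58.7% of the set's promoters, 37.4% of all and 80% of those of G2 and mitosis genes. An E2F-type match was in 1 of those 20 promoters (5%). A stretch can hold matches to more than 1 of these motifs, and each motif was counted separately on both strands.

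**Figure D3:**
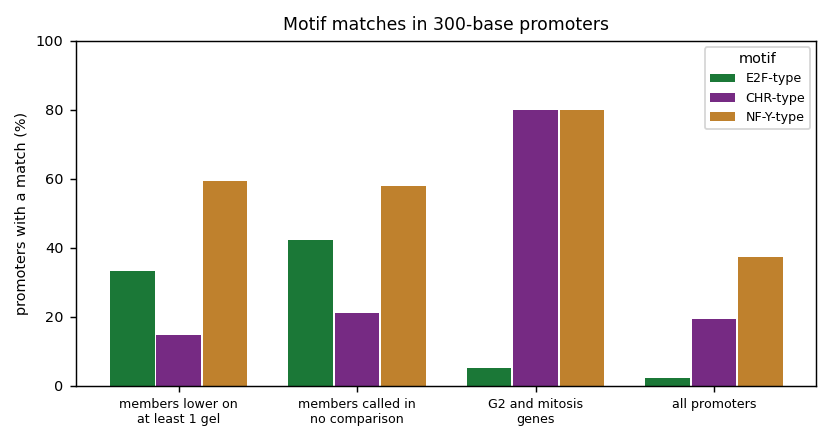
Share of promoters (%) with a match to each of 3 motifs (E2F-type, CHR-type and the NF-Y letters), for the genes of the set lower on at least 1 gel, those called in no comparison, the G2 and mitosis genes and all promoters. E2F-type matches are in 33.3% and 42.1% of the promoters of the called and uncalled genes of the set and in 2.26% of all promoters. CHR-type matches are in 80% of the promoters of the G2 and mitosis genes.

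Of the 5 genes that activate the helicase, 1 fell on 1 kPa, near the 22% of all genes, and 2 fell on 20 kPa, against 19.6% of all genes. Gins2 (ENSMUSG00000031821.12, chromosome 8, 120578633 to 120589304, minus strand), a subunit of the GINS complex, was at 16.9 and 17.7 CPM on 1 kPa and 13.5 and 15.1 CPM on 20 kPa, against 25.3 and 25.9 CPM on glass. Every gel library was far below both glass libraries. It fell by 0.57 (SE 0.10, adjusted p = 2.22e-05) on 1 kPa and by 0.84 (SE 0.10, adjusted p = 4.74e-08) on 20 kPa on the log2 scale. Of its exonic bases, 67.3% overlap Gse1 on the opposite strand, and since the strand setting of the counting is not given in the sources used here, its reads cannot be told apart from those of Gse1. The other GINS genes of the set did not follow it past the threshold. Gins1 had log2 fold changes of -0.34 (SE 0.16, adjusted p = 0.0809) on 1 kPa and -0.16 (SE 0.15) on 20 kPa, and Gins3 of -0.23 (SE 0.16) and -0.13 (SE 0.15), both at 5.60 to 7.95 CPM.

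Mcm10, which helps to start the active helicase, was at 16.3 and 17.8 CPM on 1 kPa and 13.3 and 14.4 CPM on 20 kPa, against 19.6 and 19.3 CPM on glass. It fell on 20 kPa (log2 fold change -0.49, SE 0.11, adjusted p = 0.000397) and did not pass on 1 kPa (-0.19, SE 0.10, adjusted p = 0.139). Cdc45, the other partner of the active ring, was at 22.8 and 21.1 CPM on 1 kPa and 18.4 and 18.4 CPM on 20 kPa, against 18.7 and 19.6 CPM on glass. Its mean was highest on 1 kPa, unlike that of the ring genes, and no comparison passed (log2 fold change 0.20, SE 0.10, on 1 kPa and -0.06, SE 0.10, on 20 kPa).

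The clamp and its loader gave no call on either gel. Pcna encodes the sliding clamp that holds polymerases on DNA. It was at 68.9 and 64.9 CPM on 1 kPa and 67.9 and 68.1 CPM on 20 kPa, against 67.5 and 77.7 CPM on glass. The gel libraries lay within or next to the range of the glass libraries, with log2 fold changes of -0.11 (SE 0.07, adjusted p = 0.202) and -0.09 (SE 0.07, adjusted p = 0.328). Without glass replicate 1, Pcna was called lower on both gels, with adjusted p of 0.0157 on 1 kPa and 0.0364 on 20 kPa, and the copy Pcna-ps2 matches 781 of its bases at 99.2% identity.

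Of the loader subunits, Rfc4 had the smallest p, with 12.8 and 8.07 CPM on 1 kPa and 11 and 9.64 CPM on 20 kPa, against 11.6 and 15.3 CPM on glass. Its 1 kPa libraries differed widely, and its log2 fold changes of -0.34 (SE 0.16, adjusted p = 0.0821) and -0.37 (SE 0.16, adjusted p = 0.063) did not pass. Rfc4 sat near the threshold and passed in 4 of 14 alternatives on 1 kPa and in 7 of 14 on 20 kPa. On 1 kPa these were total counts (adjusted p = 0.0335), no filter (0.0412), without 1 kPa replicate 1 (0.00111) and without glass replicate 1 (0.0116). On 20 kPa these were RLE size factors (0.049), total counts (0.0484), no filter (0.0296), only the groups compared (0.026), without glass replicate 1 (0.0091), without 1 kPa replicate 1 (0.0289) and without 1 kPa replicate 2 (0.0326). Rfc2, Rfc3 and Rfc5 had log2 fold changes of -0.15 to 0.02 on 1 kPa and -0.18 to 0.10 on 20 kPa, with SE of 0.07 to 0.11, and Rfc5 passed on 20 kPa without glass replicate 2 (0.0345). A p above the threshold does not show that these genes were equal on gels and glass.

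Of 7 polymerase and primase genes, 3 fell on 1 kPa and 4 on 20 kPa, and those that fell were the polymerase alpha and primase genes and Pole. Pole, the catalytic subunit of the leading-strand polymerase epsilon, was at 27.2 and 26.4 CPM on 1 kPa and 24.3 and 23.7 CPM on 20 kPa, against 37.6 and 31.7 CPM on glass. It fell by 0.38 (SE 0.09, adjusted p = 0.00107) on 1 kPa and 0.54 (SE 0.09, adjusted p = 1.54e-05) on 20 kPa on the log2 scale. Pola1, the catalytic subunit of polymerase alpha, was at 23.7 and 23.8 CPM on 1 kPa and 23.0 and 22.6 CPM on 20 kPa, against 29.2 and 30.9 CPM on glass. Its log2 fold changes were -0.34 (adjusted p = 0.00247) and -0.40 (adjusted p = 0.000484). Neither gene had a gel library that reached glass.

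Pola2, the accessory subunit of polymerase alpha, fell on 20 kPa (log2 fold change -0.41, adjusted p = 0.000324) and did not pass on 1 kPa (-0.19, adjusted p = 0.0761). Prim1, the primase that lays down the RNA primers, had log2 fold changes of -0.27 (SE 0.10, adjusted p = 0.0361) on 1 kPa and -0.43 (SE 0.11, adjusted p = 0.00146) on 20 kPa. Its call on 1 kPa was lost without any 1 of the glass or 1 kPa libraries (adjusted p of 0.0544 to 0.207), and on 20 kPa without 20 kPa replicate 1 (0.0732). Pold1 and Pold3, subunits of the lagging-strand polymerase delta, and Pole2, an accessory subunit of polymerase epsilon, did not pass on either gel against glass. Between 20 kPa and 1 kPa, Pold1 had a log2 fold change of -0.21 (SE 0.08, adjusted p = 0.067). That difference passed with only both gels in the fit (0.0342) and with a filter of 50 counts in 2 libraries (0.0488), not with DESeq2 or limma-voom. Pold1 was at 50.1 and 49.6 CPM on 1 kPa and 39.5 and 46.6 CPM on 20 kPa, against 51.1 and 46.5 CPM on glass, and passed on 20 kPa without glass replicate 2 (0.0242) or 20 kPa replicate 2 (0.0181). Pold3 had the opposite sign, 0.11 (SE 0.11) on 20 kPa, and was called higher there without glass replicate 1 (0.025).

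Of the 4 genes that process the strands, 3 fell on each gel. Lig1 (ENSMUSG00000056394.21, chromosome 7, 13277283 to 13311433, plus strand), the ligase that joins Okazaki fragments, was at 43.1 and 43.4 CPM on 1 kPa and 38.7 and 39.0 CPM on 20 kPa, against 61.9 and 56.8 CPM on glass. The libraries of each gel were nearly equal and far from glass. Its log2 fold change was -0.46 (SE 0.07, adjusted p = 6.79e-06) on 1 kPa and -0.61 (SE 0.07, adjusted p = 6.08e-08) on 20 kPa. Rpa1, the large subunit of the protein that coats single-stranded DNA, was at 85.3 and 84.3 CPM on 1 kPa and 88.2 and 85.8 CPM on 20 kPa, against 115 and 107 CPM on glass. It fell by 0.39 (adjusted p = 6.83e-06) and 0.35 (adjusted p = 3e-05) on the log2 scale, and its libraries on 20 kPa were not below those on 1 kPa.

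Rpa2, the middle subunit of the same protein, did not pass (log2 fold change -0.11, SE 0.11, on 1 kPa and -0.23, SE 0.11, on 20 kPa). Fen1, the nuclease that trims flaps between Okazaki fragments, was counted low, at 2.19 and 1.85 CPM on 1 kPa and 1.41 and 2.23 CPM on 20 kPa, against 2.73 and 4.12 CPM on glass. It had the most negative log2 fold changes of the set, -0.73 (SE 0.28, adjusted p = 0.0359) and -0.89 (SE 0.29, adjusted p = 0.0128), and also the widest errors. Of its exonic bases, 84.2% overlap Gm10143 and Tmem258 on the opposite strand, so its count is uncertain. Its call on 1 kPa was lost without glass replicate 2 or either 1 kPa library (adjusted p of 0.0557 to 0.341), and on 20 kPa without glass replicate 2 (0.187) or 20 kPa replicate 1 (0.185).

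The 4 genes of nucleotide synthesis included the one with the smallest adjusted p of the set, Rrm1. Of these, 2 fell on 1 kPa and 4 on 20 kPa, and their summed level was 291 and 286 CPM on 1 kPa and 259 and 257 CPM on 20 kPa, against 375 and 378 CPM on glass. Rrm1 (ENSMUSG00000030978.11, chromosome 7, 102441695 to 102469771, plus strand), the large subunit of ribonucleotide reductase, which makes deoxynucleotides, was at 111 and 111 CPM on 1 kPa and 109 and 99.4 CPM on 20 kPa, against 173 and 180 CPM on glass. Both gels were far below glass and close to each other. Its log2 fold changes were -0.67 (SE 0.06, adjusted p = 1.79e-10) on 1 kPa and -0.76 (SE 0.06, adjusted p = 1.31e-11) on 20 kPa. The small subunit Rrm2, whose level follows S phase, was at 98.6 and 93.5 CPM on 1 kPa and 84.7 and 87.9 CPM on 20 kPa, against 106 and 99.7 CPM on glass. It fell only by 0.25 (SE 0.06, adjusted p = 0.0017) on 20 kPa on the log2 scale and did not pass on 1 kPa (-0.10, SE 0.06, adjusted p = 0.227).

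Tk1 (ENSMUSG00000025574.14, chromosome 11, 117815526 to 117826092, minus strand), the thymidine kinase of the salvage route, was at 44.2 and 47.5 CPM on 1 kPa and 34.6 and 40.2 CPM on 20 kPa, against 62.7 and 61.9 CPM on glass. The 3 groups were separated. Its log2 fold change was -0.45 (SE 0.08, adjusted p = 2.06e-05) on 1 kPa and -0.74 (SE 0.08, adjusted p = 4.78e-09) on 20 kPa, and -0.29 between 20 kPa and 1 kPa (SE 0.08, adjusted p = 0.00909). The call between the gels was lost without 1 kPa replicate 2 (adjusted p = 0.175) and without 20 kPa replicate 1 (0.249). Tyms, which makes thymidylate from scratch, was at 36.7 and 34.5 CPM on 1 kPa and 30.8 and 29.9 CPM on 20 kPa, against 33.1 and 37.2 CPM on glass. Its fall on 20 kPa lay at the threshold (log2 fold change -0.21, SE 0.08, adjusted p = 0.0482) and was lost in 11 of 14 alternatives, among them each library left out except glass replicate 1, with adjusted p of 0.0707 to 0.317. It also has the annotated copy Tyms-ps, with 677 bases at 95.6% identity.

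**Figure D4:**
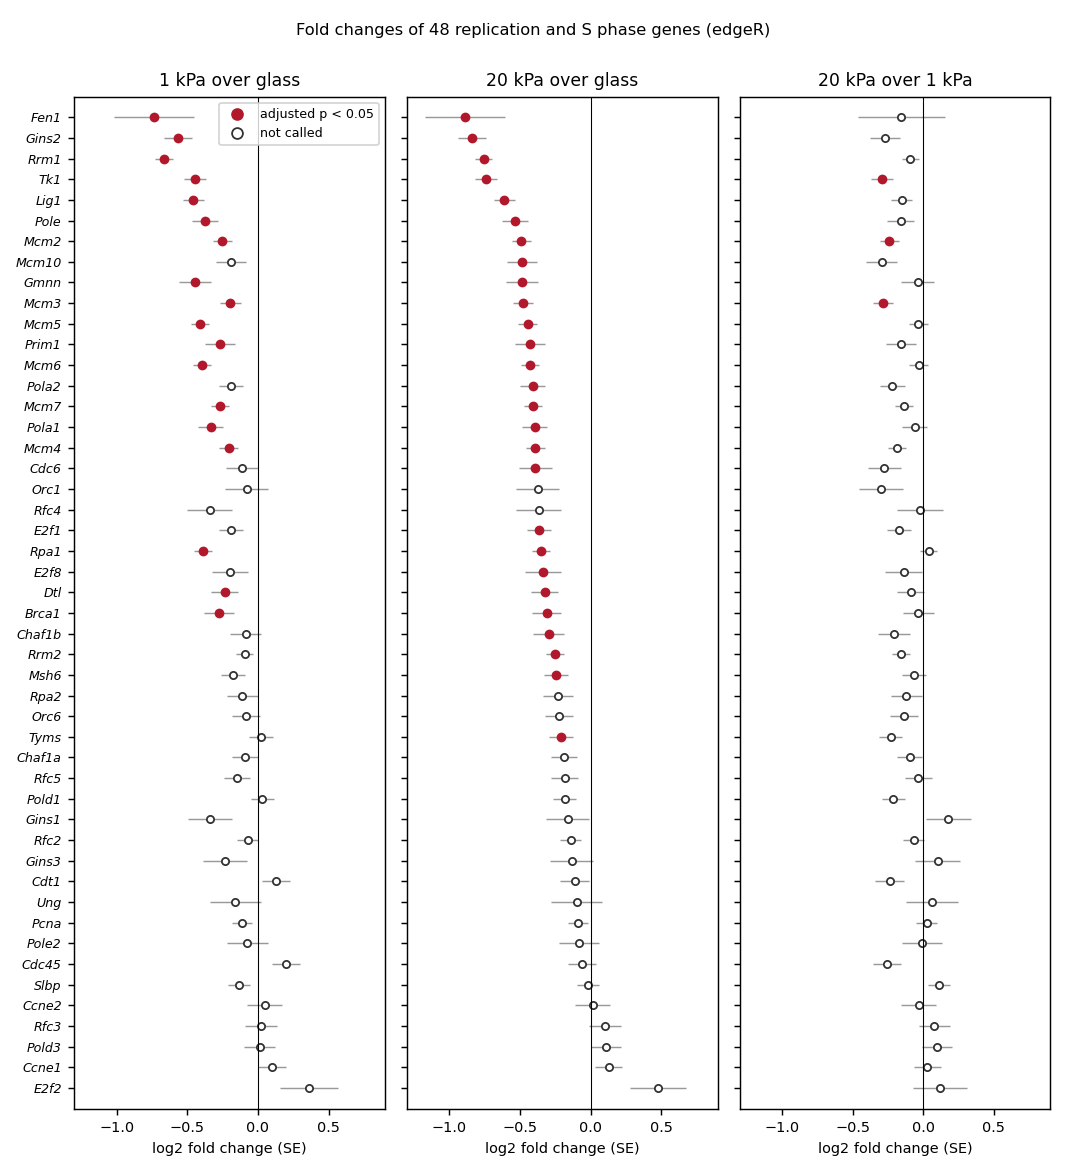
Log2 fold change and SE of the 48 genes in 3 comparisons, ordered by the change on 20 kPa against glass, with filled points for adjusted p under 0.05. On 20 kPa against glass 27 genes are filled, on 1 kPa against glass 18, and on 20 kPa against 1 kPa the 3 genes Mcm2, Mcm3 and Tk1.

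Of the 3 genes of histone supply and chromatin assembly, 0 fell on 1 kPa and 1 fell on 20 kPa. Slbp encodes the protein that binds the stem-loop of histone mRNAs, and it was at 37.9 and 41.0 CPM on 1 kPa and 41.8 and 43.4 CPM on 20 kPa, against 42.9 and 43.6 CPM on glass. It did not pass, at -0.13 (SE 0.08) and -0.02 (SE 0.08). Chaf1b, a subunit of the CAF-1 complex that places histones on new DNA, was at 17.8 and 15.7 CPM on 1 kPa and 15.4 and 13.6 CPM on 20 kPa, against 18.6 and 17.1 CPM on glass. It fell on 20 kPa (log2 fold change -0.30, SE 0.11, adjusted p = 0.0318), with an adjusted p of 0.187 without glass replicate 1 and 0.265 without 20 kPa replicate 2. The largest CAF-1 subunit gene, Chaf1a, did not pass (-0.09 and -0.19, SE 0.09 each). It passed on 20 kPa without glass replicate 2 (0.0325), and 52.5% of its exonic bases overlap Ubxn6 on the opposite strand.

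Among the 3 repair genes, Brca1, needed for repair by homologous recombination, fell on both gels. It was at 19.9 and 16.3 CPM on 1 kPa and 18.1 and 17.3 CPM on 20 kPa, against 22.9 and 21 CPM on glass, with log2 fold changes of -0.28 (adjusted p = 0.0333) and -0.31 (adjusted p = 0.0179). On 1 kPa its adjusted p was 0.182 without glass replicate 1 and 0.422 without 1 kPa replicate 2, and on 20 kPa without glass replicate 1 or either 20 kPa library (0.0556 to 0.131). Msh6, of mismatch repair, fell on 20 kPa (-0.24, adjusted p = 0.0227), a call lost without glass replicate 1 or either 20 kPa library (0.105 to 0.249), and was called on 1 kPa without glass replicate 2 (0.0206) or 1 kPa replicate 2 (0.046). Ung, which removes uracil from DNA, was at 4.92 to 7.02 CPM in all libraries and did not pass.

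Of the 6 regulators of G1/S, 1 fell on 1 kPa, a share under the 22% of all genes, and 3 fell on 20 kPa, against 19.6% of all genes. E2f1, an activating E2F factor, was at 33.5 and 35 CPM on 1 kPa and 28.1 and 32.5 CPM on 20 kPa, against 38.2 and 39.9 CPM on glass. Its gel libraries lay below glass. It fell on 20 kPa (log2 fold change -0.36, SE 0.09, adjusted p = 0.00091, or 0.0559 without 20 kPa replicate 1) and did not pass on 1 kPa (-0.19, SE 0.08, adjusted p = 0.0701). E2f8, a repressing member of the family, fell on 20 kPa (-0.34, adjusted p = 0.0334), with 0.346 without glass replicate 1 and 0.305 without 20 kPa replicate 2. Dtl, a subunit of the ubiquitin ligase that removes Cdt1 in S phase, had log2 fold changes of -0.24 (adjusted p = 0.043) and -0.32 (adjusted p = 0.00624). On 1 kPa its call was lost without any 1 of the glass or 1 kPa libraries (0.0526 to 0.261), and on 20 kPa without 20 kPa replicate 2 (0.0717).

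E2f2, another activating E2F, was the only member with libraries higher on both gels by more than 0.3 on the log2 scale. It was at 4.29 and 4.32 CPM on 1 kPa and 4.48 and 4.84 CPM on 20 kPa, against 3.19 and 3.54 CPM on glass. The groups did not overlap, but neither change passed (0.36, SE 0.21, adjusted p = 0.159 on 1 kPa and 0.48, SE 0.20, adjusted p = 0.0571 on 20 kPa). The E-type cyclins, which drive Cdk2 at the start of S phase, did not pass either. Ccne1 was at 21.3 and 23.7 CPM on 1 kPa and 23.1 and 22.8 CPM on 20 kPa, against 21.4 and 20.6 CPM on glass, and its log2 fold changes were 0.10 (SE 0.10) and 0.13 (SE 0.09). Ccne2 ranged over 13.8 to 18.2 CPM on all substrates.

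For 9 genes the fall passed on 20 kPa and not on 1 kPa: Cdc6, Mcm10, Pola2, Tyms, Rrm2, Chaf1b, Msh6, E2f1 and E2f8. The direct difference between 20 kPa and 1 kPa did not pass for any of them, with adjusted p of 0.0543 for Tyms, 0.0548 for Mcm10 and up to 0.673 for Msh6. In the alternatives, that difference passed in 5 of 14 for Tyms and for Mcm10 and in 4 of 14 for Rrm2, among them with only both gels in the fit and without either glass library. For the other 6 genes it passed in none.

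Several of the weaker calls against glass also ended under another tool or setting. With DESeq2 the adjusted p on 1 kPa was 0.0797 for Mcm3, 0.124 for Prim1, 0.115 for Fen1, 0.116 for Brca1 and 0.139 for Dtl. On 20 kPa it was 0.0511 for Fen1, 0.11 for Tyms, 0.105 for Chaf1b, 0.0627 for Msh6, 0.0678 for Brca1 and 0.116 for E2f8. Scaling to total counts ended the calls of Tyms (0.117), Chaf1b (0.0561), Msh6 (0.0541) and E2f8 (0.0506) on 20 kPa. With no filter, those of Prim1 (0.0519) and Dtl (0.0879) on 1 kPa and of Tyms (0.105) and Chaf1b (0.054) on 20 kPa were lost. With limma-voom, Fen1 on 1 kPa (0.054) and Tyms on 20 kPa (0.0532) did not pass, and with only the groups compared, Dtl on 1 kPa (0.0525) and Tyms on 20 kPa (0.0578) did not.

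The 27 genes called on at least 1 gel had a median mean level of 33.7 CPM, with 9 of them under 20 CPM. The 21 genes called in no comparison had a median of 21.4 CPM, with 10 under 20 CPM. Per kilobase of annotated exon, the highest levels on glass were those of Rrm2 (37.0 RPKM) and Pcna (30.2 RPKM), and the lowest those of E2f2 (0.689 RPKM), Ung (1.17 RPKM) and Fen1 (1.41 RPKM).

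Genes of the same pathways outside the set were also mixed. Over all tested genes, 22% fell and 23% rose on 1 kPa, and 19.6% fell and 22.3% rose on 20 kPa. Of 33 other replication genes, 10 fell and 1 rose on 1 kPa, and 12 fell and 1 rose on 20 kPa, with medians of -0.10 and -0.16. Dbf4, the activator of the kinase Cdc7, which phosphorylates the loaded ring, was at 30.4 and 28.7 CPM on 1 kPa and 23.4 and 25.7 CPM on 20 kPa, against 40.9 and 42.7 CPM on glass. It fell by 0.50 (adjusted p = 1.16e-05) and 0.77 (adjusted p = 9.97e-09) on the log2 scale, and it was lower on 20 kPa than on 1 kPa (-0.27, adjusted p = 0.0304). Topbp1, a scaffold of helicase activation, fell by 0.24 (adjusted p = 0.00286) and 0.39 (adjusted p = 9.93e-06). Of 17 other genes of nucleotide supply, 10 fell on 1 kPa and 11 on 20 kPa and 0 rose, with medians of -0.23 and -0.21. Dut, which removes dUTP, was at 43.0 and 45.4 CPM on 1 kPa and 45.7 and 48 CPM on 20 kPa, against 76.3 and 82.9 CPM on glass (log2 fold change -0.85, adjusted p = 3.88e-11, and -0.76, adjusted p = 3.31e-10).

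Of 24 other genes of S phase chromatin and repair, 11 fell on each gel and 0 rose, with medians of -0.16 and -0.27. Asf1b, a histone chaperone, fell by 0.64 (adjusted p = 1.31e-05) and 0.81 (adjusted p = 3.49e-07) on the log2 scale. The upstream regulators were mixed. Of 21 other E2F, RB and G1 genes, 8 fell and 4 rose on 1 kPa, and 12 fell and 2 rose on 20 kPa. Ccnd1, cyclin D1, which starts the phosphorylation of the retinoblastoma protein in G1, was at 105 and 112 CPM on 1 kPa and 131 and 131 CPM on 20 kPa, against 404 and 377 CPM on glass. That is a far larger distance than in any gene of the set, with log2 fold changes of -1.85 (SE 0.06, adjusted p = 5.02e-21) and -1.57 (SE 0.06, adjusted p = 2.05e-19), and it was higher on 20 kPa than on 1 kPa (0.28, adjusted p = 0.00109). E2f7, a repressor like E2f8, fell by 0.40 (adjusted p = 0.00825) and 0.59 (adjusted p = 0.000252). Rb1, the retinoblastoma gene, did not pass against glass (-0.13 and 0.17) and was higher on 20 kPa than on 1 kPa (0.29, adjusted p = 0.00639).

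Of 7 genes that inhibit the cyclin-dependent kinases, 5 fell on each gel, against 22% of all genes on 1 kPa and 19.6% on 20 kPa, while 0 rose on 1 kPa and 1 rose on 20 kPa. Cdkn1a, which encodes p21, was at 171 and 174 CPM on 1 kPa and 150 and 151 CPM on 20 kPa, against 297 and 284 CPM on glass (log2 fold change -0.75, adjusted p = 2.2e-12, and -0.95, adjusted p = 1.39e-14). The one that rose was Cdkn1c, which encodes p57, at 44.3 and 43.6 CPM on 20 kPa, against 19.1 and 14.8 CPM on glass (log2 fold change 1.36, SE 0.10, adjusted p = 1.12e-12). On 1 kPa it was at 18.2 and 17.3 CPM, close to glass. Of its exonic bases, 30.7% overlap an antisense gene, and 23.4% of those of Ccnd1 do.

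G2 and mitosis genes lay further below glass than the replication genes in these libraries. All 25 of that list fell on each gel, against 22% of all genes on 1 kPa and 19.6% on 20 kPa. Their median log2 fold changes were -0.72 on 1 kPa and -1.0 on 20 kPa. Of the 25, 13 were lower on 20 kPa than on 1 kPa, against 9.92% of all genes. Mki67, the proliferation antigen Ki-67, was at 177 and 183 CPM on 1 kPa and 150 and 146 CPM on 20 kPa, against 297 and 294 CPM on glass. Ccna2, cyclin A2, which acts in both S and G2 phase, was at 50.1 and 54.0 CPM on 1 kPa and 43.9 and 40.2 CPM on 20 kPa, against 78.5 and 78.8 CPM on glass. The summed level of the list was 59.3% of glass on 1 kPa and 50.4% on 20 kPa. Within a library, the summed replication genes over the summed G2 and mitosis genes gave ratios of 1.37 and 1.33 on 1 kPa and 1.44 and 1.51 on 20 kPa, against 0.956 and 0.942 on glass. The gel libraries did not overlap the glass libraries in this ratio, which at 2 against 2 libraries cannot give an exact p below 0.333.

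**Figure D5:**
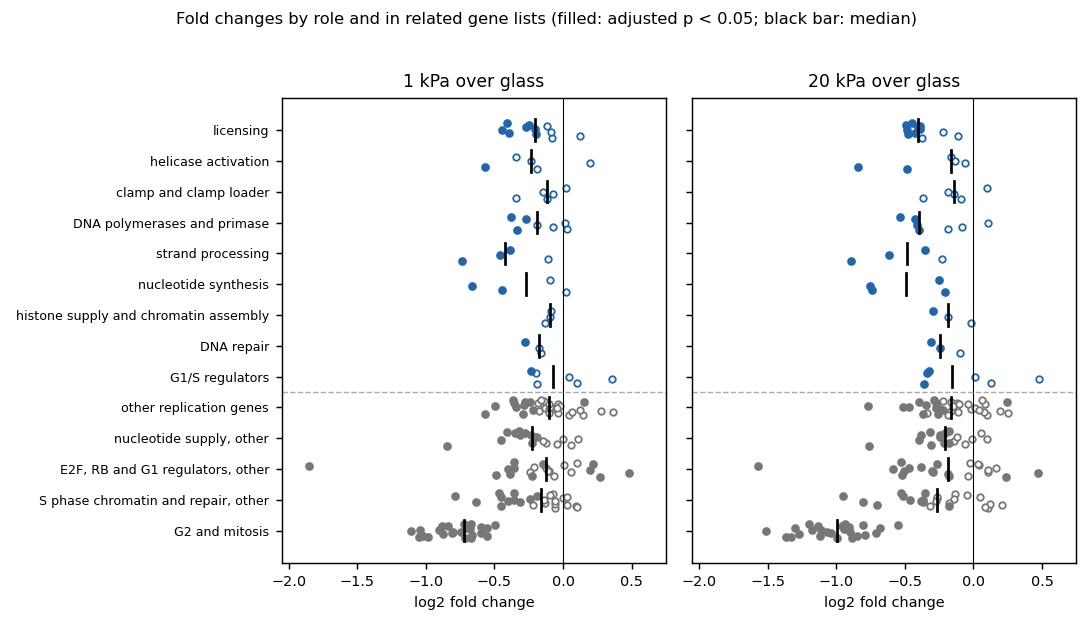
Log2 fold change of each gene on 1 kPa (left) and 20 kPa (right) over glass, with the 9 roles of the set above the dashed line and 5 related lists under it, filled points for adjusted p under 0.05 and black bars for medians. The G2 and mitosis genes have medians of -0.72 and -1.0, while the medians of the licensing genes are -0.21 and -0.41 and those of the clamp and clamp loader are -0.11 and -0.14.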

How the data were processed

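Poly(A) RNA of 6 libraries was analysed, 2 for each of 1 kPa, 20 kPa and glass. The authors deposited raw counts of reads per gene, as whole numbers with no normalisation. Per the submitters' processing notes, the tools were featureCounts, STAR 2.7.10b, Trim Galore and cutadapt, with the build mm10. Neither the annotation nor the strand setting of the counting is given in the sources used here. Of the 57010 identifiers, 91.4% matched GENCODE M21 on GRCm38, which gave symbols, positions and exonic lengths. The match ignored the version number after the point. Identifiers are printed with the version of the counts, which can be later than that of the gene model behind the position and overlap.

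Genes were filtered with filterByExpr and scaled with TMM, and all 6 libraries entered 1 quasi-likelihood fit of edgeR 4.0.16 (R 4.3.3) with group as its only term and 3 residual degrees of freedom. Every adjusted p of a gene comes from that fit, by Benjamini-Hochberg over all 16093 tested genes, at a threshold of 0.05. The common biological coefficient of variation was 4.98%. SE is the size of the log2 fold change over the square root of F. Error bars on CPM are the SD of the 2 libraries of a group. RPKM values divide CPM by the exonic length. The test was tried on simulated data with known changes of at least 2-fold, a size that no gene of the set reached. That trial does not show how well smaller changes are found. Copies were searched with blastn 2.17.0.

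Alternatives were RLE size factors, total counts, DESeq2 1.42.0, limma-voom 3.58.1, no filter, a filter of 50 counts in 2 libraries, only the groups compared, a replicate block and each library left out. The 48 genes, the related lists and the marker lists were chosen with earlier results of these data known. The naming rule allows all 48 genes, up to 4 genes of each related list with the smallest p over the 3 groups, and Mki67, Cdkn1a, Ccnd1, Rb1, E2f7 and Ccna2. Cdkn1c meets that rule, as do Dbf4, Topbp1, Dut and Asf1b.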

Additional observations from a re-analysis of the deposited data

How the results depend on the processing

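No change called in the comparisons turned its direction in any alternative, while some uncalled ones changed sign in at least 1 alternative. Of the calls against glass, 11 of 18 on 1 kPa and 17 of 27 on 20 kPa passed in all 14 alternatives, and of the 3 genes lower on 20 kPa than on 1 kPa, 0 did. Of the genes not called, 3 of 30, 9 of 21 and 7 of 45 in these comparisons passed in at least 1 alternative. The number of genes lower on 20 kPa than on 1 kPa was 6 with RLE size factors, 9 with the stricter filter, 10 with only the groups compared, and 0 to 9 when 1 library was left out, being 0 without 1 kPa replicate 2 and without 20 kPa replicate 1. The median log2 fold change of all 48 genes in that comparison was -0.12 with RLE, DESeq2 and the stricter filter. It was -0.065 with total counts, -0.10 with voom and with no filter, and -0.11 to -0.10 with 1 library left out. All genes called between 20 kPa and 1 kPa numbered 2022 with DESeq2, against 3035, and 1680 to 3824 with 1 library left out. On 20 kPa against glass, 1 gene of the set was called higher with total counts, E2f2, and 0 to 1 with 1 library left out, the 1 being Pold3 without glass replicate 1, and the median was -0.29 with total counts and -0.32 to -0.28 with 1 library left out. The causes were not tested. Another scaling moved the median of all genes by less than 0.05 on the log2 scale.

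Libraries of equal replicate number did not deviate together (r of -0.05 between 1 kPa and glass, -0.02 between 20 kPa and glass and -0.03 between the gels), so the numbers are not taken as pairs. With a replicate block, 17 genes of the set were lower on 1 kPa and 26 on 20 kPa than on glass, 3 on 20 kPa than on 1 kPa, and 23 were called over the 3 groups. It ended the call of Dtl on 1 kPa (adjusted p = 0.0514) and of Tyms on 20 kPa (0.0594). Depth limits the low-count genes Fen1, E2f2, Gins1, Gins3, Ung and Orc1, whose SE are 0.15 to 0.31.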
